A study of Mus musculus with 300 samples.

Results

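8 liver genes whose RNA stood furthest below vehicle under agonists of the peroxisome proliferator-activated receptors (PPARs) were followed in liver, heart, kidney and skeletal muscle of dosed mice. They are Ptgds, Serpina12, Obp2a, Adgrv1, Moxd1, Atp2b2, Nckap5 and Asap2, which are 8 of 18193 genes measured. They were chosen by their liver log2 intensity under each compound minus same-day vehicle, averaged over days: they stood among the largest decreases of the 3 compounds, with at least 14 of 15 treated arrays below the same-day vehicle mean. Genes also had to pass limma at an adjusted p under 0.05, and those with Gm or Rik names were left out of the ranking. Each of the 8 is represented by its probe set with the highest mean. Every value of compound against vehicle in liver is therefore a description of how the genes were chosen and carries no test.

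The study gave 75 mice WY14643, GW501516, rosiglitazone or vehicle by mouth and measured 4 tissues of each animal on 300 Affymetrix arrays. In each tissue there were 5 mice given WY14643 at 10 mg/kg, 5 given GW501516 at 10 mg/kg and 5 given rosiglitazone at 10 mg/kg on each of days 4, 8 and 15, and 10 vehicle mice on each of those days. WY14643 is known as an agonist of PPAR alpha, GW501516 of PPAR delta and rosiglitazone of PPAR gamma. The labels name no allele, and strain, sex, age and the hour of sampling are not given in the sources used here. Each array is 1 mouse and 1 tissue, so the p-values below cover the spread between mice.

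PPARs are nuclear receptors that pair with the retinoid X receptor on DNA and switch on genes of fatty acid uptake and oxidation when a ligand binds. In liver PPAR alpha is the main form, and its agonists are better known for genes they raise than for genes they lower. Arntl encodes BMAL1, the partner of CLOCK in the circadian oscillator. Its RNA swings over the day in liver, and how closely each gene tracked Arntl between animals was measured here. A correlation with Arntl does not by itself place a gene in the oscillator, nor does its absence place a gene outside it. Among the 8, the correlation with Arntl across vehicle livers passed the test for Nckap5 and Asap2, though not without the 2 livers farthest in Arntl, and it did not pass for the other 6. Differences between the genes' correlations were not tested.

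Promoter windows from 250 bases before to 50 bases after the annotated start were taken from RefSeq on GRCm38.p6, and 10 windows were found for 7 of the 8 genes, all but Asap2. Windows are shown for Ptgds, lowest under both WY14643 and GW501516, and Nckap5, closest to Arntl (the first of its 2 starts). Also shown is Atp2b2, the gene with most clock-type motif matches (the second of its 3 starts). Capitals mark matches on either strand to the D-box TTATGNAA, an element bound by the clock-controlled factors DBP, TEF and HLF.
Ptgds, chr2:25469700-25469999, minus strand: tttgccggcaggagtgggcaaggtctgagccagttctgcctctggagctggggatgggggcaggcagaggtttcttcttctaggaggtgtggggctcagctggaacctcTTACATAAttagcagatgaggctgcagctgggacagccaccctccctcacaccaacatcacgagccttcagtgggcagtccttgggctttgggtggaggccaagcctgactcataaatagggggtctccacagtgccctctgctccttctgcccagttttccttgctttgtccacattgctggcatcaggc
Nckap5, chr1:126830583-126830882, minus strand: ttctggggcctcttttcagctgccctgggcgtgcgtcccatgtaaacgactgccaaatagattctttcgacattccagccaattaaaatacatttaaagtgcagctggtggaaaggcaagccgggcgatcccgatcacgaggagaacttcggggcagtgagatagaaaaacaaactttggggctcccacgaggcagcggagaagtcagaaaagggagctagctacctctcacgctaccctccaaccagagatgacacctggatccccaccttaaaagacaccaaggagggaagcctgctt
Atp2b2, chr6:113934632-113934931, minus strand: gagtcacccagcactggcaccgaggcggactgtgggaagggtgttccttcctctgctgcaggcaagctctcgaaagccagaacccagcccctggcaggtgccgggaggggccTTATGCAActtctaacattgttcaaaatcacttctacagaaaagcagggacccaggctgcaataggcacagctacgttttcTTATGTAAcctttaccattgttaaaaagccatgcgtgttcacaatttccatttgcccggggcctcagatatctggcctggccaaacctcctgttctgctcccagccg
The Ptgds window holds 1 D-box match and the Atp2b2 window shown holds 2, while the rest of the 10 windows, other Atp2b2 starts included, hold none. Of all 32851 promoter windows 3.38% hold at least 1. The Atp2b2 window was shown because of its matches, so it makes no fair comparison with that share. The canonical E-box CACGTG (7.15% of all windows), its variant CACGTT (4.68%), the ROR element core TAGGTCA (2.61%) and the PPAR response element, read as AGGNCA repeated with any 1 base between (0.381%), were searched on both strands and matched in none of the 10 windows. A match here is a run of letters and not a measured binding site.

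Deposited values are log2 intensities, and liver array medians lay between 6.12 and 6.26. Hepatocyte markers averaged 13.1 to 13.6 on every liver array of all 4 groups. Of 9 such markers measured, 1 fell by limma under WY14643 (Apoa1, -0.03), 2 fell under GW501516 (Ass1, -0.62, and Tat, -0.37) and 1 fell under rosiglitazone (Ass1, -0.87), while 1 rose under each of GW501516 and rosiglitazone. The median correlation of an array with the other arrays of its group was 0.981 to 0.995, and day 4 replicates 2 and 5 of WY14643 were the 2 lowest. Among markers of other cells, 4 of 5 neutrophil markers rose under WY14643 by limma (adjusted p under 0.05), with a mean marker level of 5.61 to 9.16 on WY14643 arrays and 5.45 to 6.82 on vehicle arrays. Of 8 stellate cell markers, 2 fell under WY14643, 4 under GW501516 and 3 under rosiglitazone, with mean levels of 8.88 to 10.4 under WY14643, 9.02 to 10.3 under GW501516, 8.95 to 9.76 under rosiglitazone and 9.19 to 10.2 in vehicle livers. The part of these cells in the values below was not tested, and in bulk tissue fewer cells of a type and less RNA per cell cannot be told apart.

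Ptgds (chr2:25466709-25470110) encodes lipocalin-type prostaglandin D synthase, a secreted protein that makes prostaglandin D2 and also carries retinoids and other lipids. On day 4 its log2 intensity was 12.02, 7.82, 9.42, 9.40 and 10.91 in WY14643 livers, against 10.80, 12.10 and 13.44 (lowest, median and highest of 10) in vehicle livers. On day 8 the WY14643 livers had 10.25, 8.40, 9.22, 9.35 and 8.35, against 10.29, 12.54 and 13.25 in vehicle livers. On day 15 they had 7.93, 9.83, 9.83, 10.15 and 8.81, against 11.15, 11.99 and 13.36 in vehicle livers. The 2 groups overlapped on day 4, through replicates 1 and 5, and did not overlap on days 8 and 15. GW501516 livers had 10.53, 10.34, 10.81, 9.32 and 10.26 on day 4. They had 10.97, 10.27, 9.85, 8.27 and 9.07 on day 8, and 11.89, 9.94, 9.55, 9.49 and 9.35 on day 15. On each day 4 of 5 GW501516 livers lay below every vehicle liver and 1 lay inside the vehicle range. Averaged over days the difference from vehicle was -2.70 ± 0.31 under WY14643 (SE, 15 arrays against 30), which is 6.49-fold lower, and -2.15 ± 0.31 under GW501516, or 4.44-fold lower. Rosiglitazone livers spread from 8.83 to 13.30 and had a mean difference of -0.51 ± 0.31, with 9 of 15 below the vehicle mean. A second Ptgds probe set gave -2.53 under WY14643, -2.14 under GW501516 and -0.55 under rosiglitazone.

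Serpina12 (chr12:104028769-104044443) encodes vaspin, a secreted serine protease inhibitor first described as an adipose hormone tied to insulin sensitivity. On day 4 WY14643 livers had log2 intensities of 12.18, 9.45, 11.65, 11.03 and 10.30, against 12.53, 12.93 and 13.23 (lowest, median and highest) in vehicle livers. On day 8 they had 8.42, 10.46, 11.48, 10.77 and 11.68, against 12.64, 13.16 and 13.45 in vehicle livers. On day 15 they had 11.68, 10.21, 11.71, 10.03 and 9.30, against 12.58, 13.17 and 13.38 in vehicle livers. Every WY14643 liver lay below every vehicle liver on all 3 days. GW501516 livers had 12.01, 12.91, 11.78, 12.40 and 12.21 on day 4. They had 10.36, 12.52, 11.95, 12.48 and 10.33 on day 8, and 12.15, 11.24, 11.19, 11.80 and 10.87 on day 15. Only replicate 2 on day 4 lay inside the vehicle range. The mean differences were -2.34 ± 0.20 under WY14643 and -1.29 ± 0.20 under GW501516, and all 15 livers of each compound lay below the same-day vehicle mean. Under rosiglitazone the difference was -0.25 ± 0.20, with 11 of 15 livers below that mean. The second, dimmer probe set of Serpina12 also lay lower under all 3 compounds but by less, at -1.07, -1.002 and -0.50 for WY14643, GW501516 and rosiglitazone.

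Obp2a (chr2:25697577-25703326) encodes an odorant-binding protein of the lipocalin family. Its vehicle livers were widely spread, from 5.79 to 11.78. WY14643 livers lay at 4.87 to 9.03 on day 4, 4.73 to 7.10 on day 8 and 4.49 to 7.32 on day 15, lower than the vehicle mean in 15 of 15 but overlapping vehicle livers on each day. The mean difference was -2.20 ± 0.50 under WY14643 and -1.24 ± 0.50 under GW501516 (12 of 15 lower), whereas rosiglitazone livers averaged 0.59 ± 0.50 higher, with 4 of 15 below the vehicle mean. Moxd1 (chr10:24223517-24302783), a copper monooxygenase related to dopamine beta-hydroxylase, was the dimmest of the 8 relative to other genes and the only one below the 40th percentile of mean liver intensity. Its differences were -1.62 ± 0.51 under WY14643, -1.77 ± 0.51 under GW501516 and -0.34 ± 0.51 under rosiglitazone. Most WY14643 and GW501516 livers sat close together at 2.62 to 3.92, while vehicle livers ran from 2.75 to 9.40, and the groups overlapped on every day.

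Adgrv1 (chr13:81095068-81633391) encodes a very large adhesion G protein-coupled receptor, known from the Usher syndrome complex that links hair cell stereocilia and photoreceptor membranes. WY14643 livers had 11.47, 7.18, 11.92, 11.09 and 9.06 on day 4, against 10.70, 12.19 and 12.33 (lowest, median and highest) in vehicle livers. They had 9.50, 10.65, 11.14, 10.19 and 11.96 on day 8, against 10.74, 12.27 and 12.48 in vehicle livers. On day 15 they had 11.03, 11.22, 11.38, 9.53 and 9.01, all below the vehicle livers at 11.92, 12.29 and 12.61. The mean difference was -1.69 ± 0.22 under WY14643, with all 15 below the vehicle mean, against -0.15 ± 0.22 under GW501516 and 0.28 ± 0.22 under rosiglitazone. GW501516 livers overlapped vehicle livers on each day, but on day 15 4 of 5 lay below every vehicle liver, with a mean of 11.88 against 12.25 in vehicle livers. Rosiglitazone livers overlapped vehicle livers on each day, with none below the lowest of them. Without day 4 replicates 2 and 5 the WY14643 difference was -1.24. A second probe set of Adgrv1 was near the floor of the array and showed no such difference (-0.09 under WY14643).

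Nckap5 (chr1:125913636-126830796) encodes NCK associated protein 5, named for its binding to the adaptor NCK. Its differences changed with the day. On day 4 WY14643 livers had 7.89, 8.71, 8.35, 8.77 and 7.17, against 6.12, 6.69 and 7.15 (lowest, median and highest) in vehicle livers, so all WY14643 livers were higher. On day 8 they had 6.15, 6.004, 6.58, 5.99 and 5.94, against 7.89, 8.78 and 9.61 in vehicle livers, so all were lower. On day 15 they had 7.52, 6.62, 6.15, 7.14 and 6.10, against 6.74, 8.18 and 9.25 in vehicle livers, with 3 of 5 below every vehicle liver. GW501516 livers had 6.51, 6.35, 6.36, 6.16 and 6.11 on day 4, inside or just below the vehicle range. They had 6.24, 6.17, 6.16, 6.19 and 5.64 on day 8 and 5.95, 5.81, 5.98, 5.78 and 5.45 on day 15, below all vehicle livers on both days. Rosiglitazone livers had 6.45, 5.83, 5.92, 6.37 and 6.52 on day 4. They had 6.35, 5.93, 5.96, 5.87 and 5.80 on day 8 and 5.98, 5.94, 5.82, 5.82 and 6.35 on day 15, again below all vehicle livers on both later days. The mean differences were -0.88 ± 0.15 under WY14643, -1.83 ± 0.15 under GW501516 and -1.83 ± 0.15 under rosiglitazone. The GW501516 and rosiglitazone livers stayed within 5.45 to 6.52 on all days, while the vehicle mean was 6.72 on day 4, 8.86 on day 8 and 8.09 on day 15.

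Asap2 (chr12:21111368-21270171) encodes a GTPase-activating protein for ARF proteins, which act in vesicle traffic and adhesion sites. On day 4 WY14643 livers had 8.21, 7.90, 7.86, 7.43 and 7.37, all above vehicle livers at 5.56, 6.48 and 6.96. On day 8 they had 7.23, 6.28, 6.33, 6.51 and 5.999, all below vehicle livers at 7.48, 8.00 and 9.08. On day 15 they had 7.18, 6.34, 6.46, 7.12 and 7.05, overlapping vehicle livers at 6.64, 7.27 and 8.30. GW501516 livers lay at 5.35 to 6.38 on day 4, 6.06 to 7.11 on day 8 and 5.95 to 6.60 on day 15, and rosiglitazone livers at 5.13 to 6.99, 5.79 to 6.06 and 5.32 to 6.24. Both compounds overlapped vehicle on day 4 and lay wholly below it on days 8 and 15. The mean differences were -0.27 ± 0.15 under WY14643, -1.04 ± 0.15 under GW501516 and -1.43 ± 0.15 under rosiglitazone. A second probe set of Asap2 gave -0.17, -0.69 and -0.74 in the same order of compounds.

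Atp2b2 (chr6:113743831-114042613) encodes a plasma membrane calcium pump, PMCA2, best known from hair cells, neurons and the lactating mammary gland. On day 15 GW501516 livers had 5.23, 5.52, 5.32, 5.37 and 5.30, against 6.44, 7.28 and 9.19 (lowest, median and highest) in vehicle livers. On day 8 they had 5.97, 5.93, 5.48, 5.14 and 4.49, against 6.61, 7.75 and 9.77 in vehicle livers. Neither day overlapped. On day 4 GW501516 livers, at 4.96 to 6.69, overlapped vehicle livers at 6.30 to 8.56. The mean differences were -1.16 ± 0.23 under WY14643, -1.87 ± 0.23 under GW501516 and -1.37 ± 0.23 under rosiglitazone, and WY14643 livers did not differ from vehicle in their mean on day 4 (0.00) while lying -2.36 from it on day 8. The other 2 Atp2b2 probe sets were dim and gave -0.60 and -0.18 under WY14643, -0.93 and -0.32 under GW501516, and -0.67 and -0.40 under rosiglitazone.

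**Figure D1:**
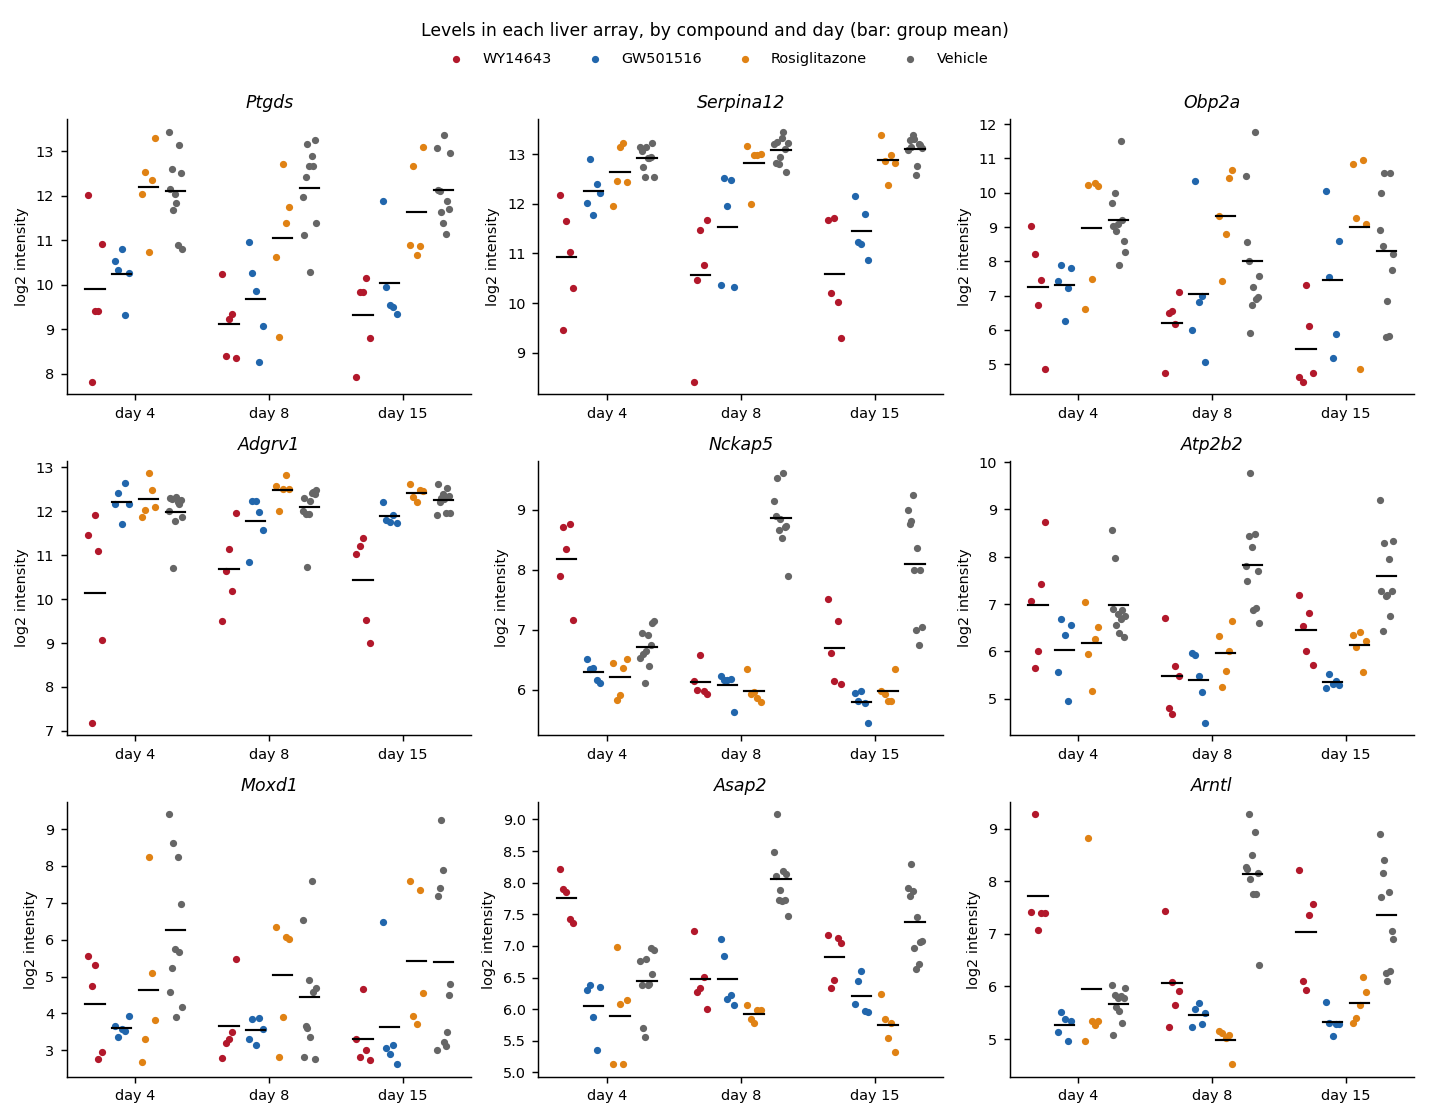
Log2 intensity of each of the 8 genes and Arntl on every liver array, by compound and day. Points are arrays, the bar is the group mean, and groups hold 5 treated or 10 vehicle mice. The means of Ptgds and Serpina12 sit below vehicle under WY14643 and GW501516 on all days, while for Nckap5 and Asap2 the vehicle level itself is low on day 4 and high on day 8.

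The counts of genes whose treated livers all lay below all vehicle livers were part of what the choice used and are given without a reading. Under WY14643 there was 1 of the 8 on day 4 (Serpina12, against 0.544% of all genes), 4 on day 8 (Ptgds, Serpina12, Nckap5 and Asap2, against 0.901%) and 3 on day 15 (Ptgds, Serpina12 and Adgrv1, against 0.418%). Under GW501516 there was 0 on day 4 (0.33% of all genes), and 4 on day 8 (1.17%) and day 15 (0.824%), in both cases Serpina12, Nckap5, Atp2b2 and Asap2. Under rosiglitazone there was 0 on day 4 (0.324%), 2 on day 8 (Nckap5 and Asap2, 2.06%) and 3 on day 15 (Nckap5, Atp2b2 and Asap2, 0.803%). Over the whole array, limma called 11.2% of genes for WY14643, 13.9% for GW501516 and 16.2% for rosiglitazone in the mean over days. The median difference of the 8 genes was -1.65 under WY14643, -1.53 under GW501516 and -0.43 under rosiglitazone, beside -0.01, -0.01 and -0.02 over all genes. Just outside the choice, and named only for that rank, stood Hcn3 under WY14643 (-1.29 ± 0.16), Slc34a2 under GW501516 (-1.49 ± 0.20) and Fst under rosiglitazone (-1.27 ± 0.27). Just inside stood Moxd1 under both WY14643 (-1.62) and GW501516 (-1.77), and Atp2b2 under rosiglitazone (-1.37). Arntl itself had rank 5 under GW501516 (-1.70 ± 0.23) and rank 2 under rosiglitazone (-1.52 ± 0.23), and is not among the 8.

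**Figure D2:**
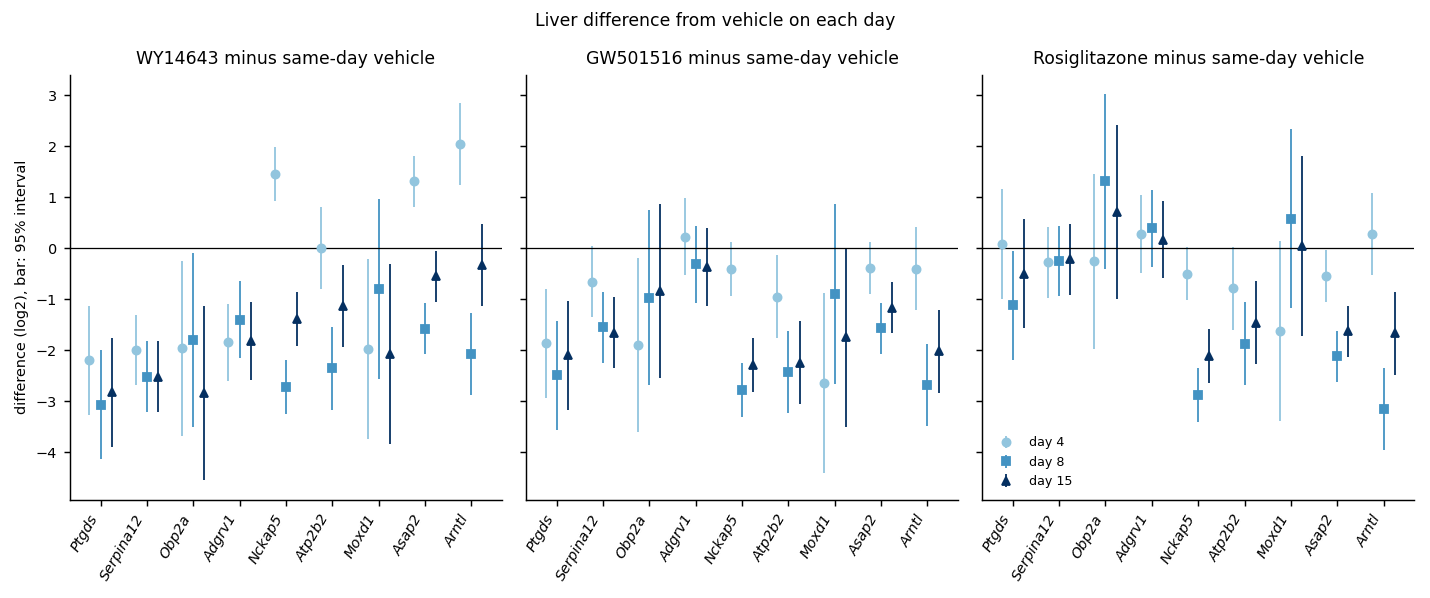
Difference from same-day vehicle in liver (log2) for each gene and Arntl under each compound, with 95% intervals, for days 4, 8 and 15. Under WY14643 Nckap5, Asap2 and Arntl lie above 0 on day 4 and below it on day 8, whereas Ptgds and Serpina12 lie between -3.07 and -1.995 on all 3 days.

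How far the difference from vehicle on day 15 departed from that on day 4 was also read. The choice required at least 14 of 15 livers below the same-day vehicle mean, so for a gene under a compound that chose it this change is a description with no test. Nckap5 was chosen on its GW501516 and rosiglitazone livers and Asap2 on its rosiglitazone livers, and WY14643 livers had no part in choosing either, but the vehicle livers were shared, so the p-values here are not independent of the choice. Under WY14643 the Nckap5 difference was 2.85 log2 units lower on day 15 than on day 4 (-2.85 ± 0.37, limma adjusted p = 2.21e-06), and that of Asap2 changed by -1.86 ± 0.36 (limma adjusted p = 0.00171), where 0.753% of all genes (137 genes) were called. Arntl moved the same way, by -2.37 ± 0.57 (limma adjusted p = 0.0226). Without WY14643 day 4 replicates 2 and 5 both calls stood, at -3.01 for Nckap5 (limma adjusted p = 3.92e-06) and -1.94 for Asap2 (limma adjusted p = 0.0075). The same value for Nckap5 was -1.61 ± 0.37 under rosiglitazone and -1.88 ± 0.37 under GW501516. Under WY14643 it was -0.63 ± 0.76 for Ptgds and -0.52 ± 0.49 for Serpina12, with 95% intervals from -2.14 to 0.88 and from -1.50 to 0.46. Over all genes limma called 0.132% for this change under rosiglitazone and 0% under GW501516, where 1214 genes had an unadjusted p under 0.05.

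These day-to-day changes contain the vehicle livers' own shift, which was tested directly. The vehicle livers were the baseline of the choice, so these p-values are not independent of it either. From day 4 to day 8 the vehicle level of Nckap5 rose by 2.14 ± 0.22 (limma adjusted p = 5.69e-11) and that of Asap2 by 1.61 ± 0.21 (limma adjusted p = 8.75e-08), against 9.73% of all genes called. Between days 4 and 15 vehicle Nckap5 rose by 1.38 ± 0.22 (limma adjusted p = 5.93e-05) and Asap2 by 0.94 ± 0.21 (limma adjusted p = 0.00344), against 4.06% of all genes. Arntl in the same livers rose by 2.46 to day 8 and by 1.68 to day 15. None of the other 6 genes passed the test on either day, with adjusted p of 0.085 for Atp2b2 (0.85 to day 8) and 0.095 for Moxd1 (-1.80 to day 8) as the lowest. The hour at which mice were sampled is not in the labels, so a shift of sampling time between days cannot be told apart from a change over days of vehicle dosing. The same limit holds within a day. A difference in sampling time between a compound's mice and vehicle mice cannot be told apart from an effect of the compound. This covers the differences of Arntl, Nckap5, Asap2 and Atp2b2 given above and below.

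The relation to Arntl was measured within days, on deviations from the day means of the 30 vehicle livers, which the choice of genes used only as the common baseline. Nckap5 had r = 0.81 (permutation p = 1e-05, a floor set by the 100000 draws, adjusted p = 0.00957) and rho = 0.73 (permutation p = 0.00013, adjusted p = 0.0554). Asap2 had r = 0.71 (permutation p = 4e-05, adjusted p = 0.0173) and rho = 0.71 (permutation p = 9e-05, adjusted p = 0.0482). All adjustments were over 18192 genes, of which 0.451% (82 genes) were called by r. Atp2b2 had r = 0.51 (permutation p = 0.00725, adjusted p = 0.27) and rho = 0.51 (adjusted p = 0.316). No relation passed for Obp2a (r = 0.33, adjusted p = 0.669), Moxd1 (r = 0.20, adjusted p = 0.843), Ptgds (r = 0.13, adjusted p = 0.913), Serpina12 (r = 0.10, adjusted p = 0.942) or Adgrv1 (r = -0.20, adjusted p = 0.787).

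**Figure D3:**
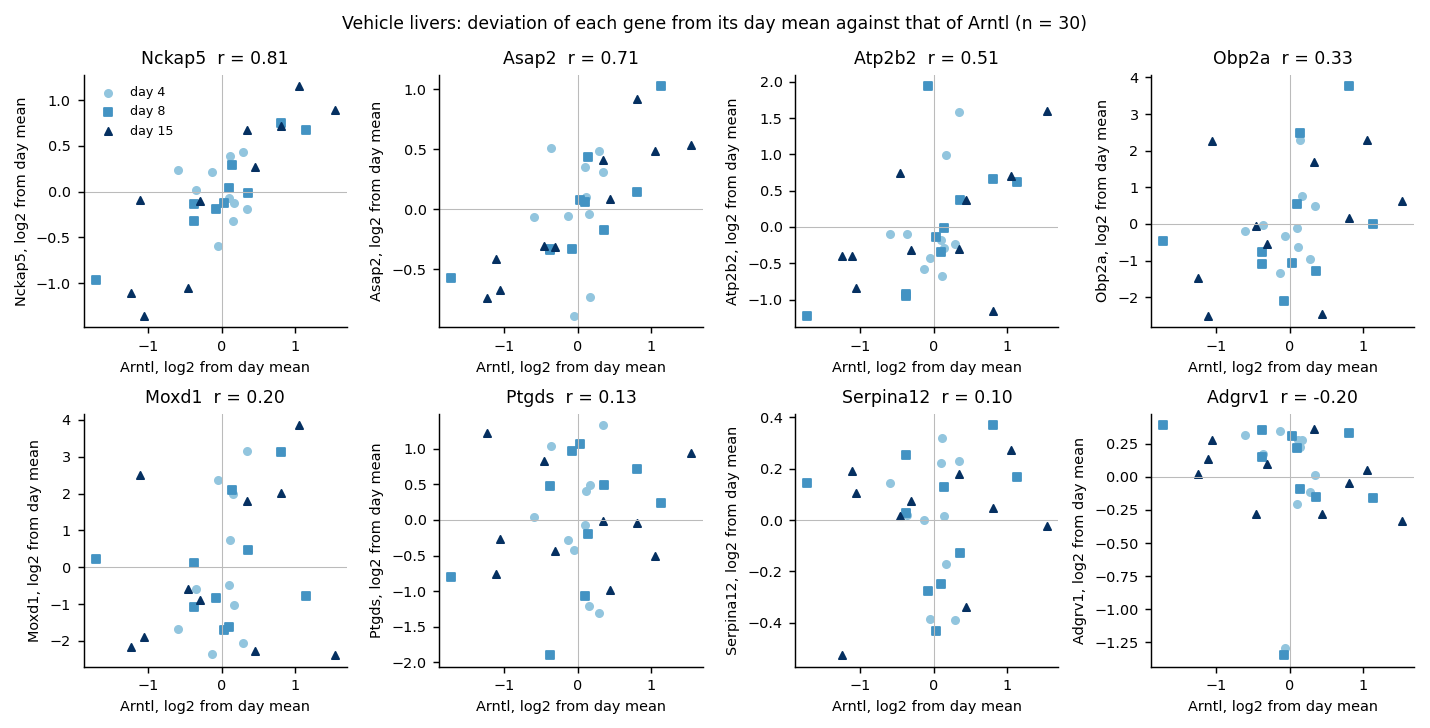
Deviation of each gene's log2 intensity from its day mean against that of Arntl in the 30 vehicle livers, marked by day (10 mice a day), with r above each panel. Nckap5 (r = 0.81) and Asap2 (r = 0.71) climb with Arntl, mostly through day 8 and day 15 livers, while day 4 livers sit together near 0 on the Arntl axis.

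The relation came from the later days. Within day 4, when Arntl spanned only 5.07 to 6.02, r was -0.14 for Nckap5, 0.06 for Asap2 and 0.37 for Atp2b2. On day 8 (Arntl 6.41 to 9.27) it was 0.95, 0.79 and 0.61, and on day 15 (Arntl 6.11 to 8.89) 0.87, 0.91 and 0.53 for the same genes. Without the 2 livers farthest from the median of Arntl, r was 0.78 for Nckap5 and 0.67 for Asap2 and neither passed the threshold (permutation adjusted p = 0.0659 and 0.0869). Those livers were picked on raw Arntl over all days, not on the deviations that enter r. Whether the calls were lost through those livers or through having fewer livers was not tested. With Arntl read in the heart of the same mouse, an independent array, r was 0.66 for Nckap5 (permutation p = 0.00023, adjusted p = 0.243) and 0.62 for Asap2 (permutation p = 0.00067, adjusted p = 0.279), and heart and liver Arntl correlated at r = 0.66 over the 30 vehicle mice. In the 45 treated livers, within compound and day, r was 0.56 for Asap2 (permutation p = 0.00348, adjusted p = 0.176) and 0.13 for Nckap5 (permutation p = 0.53, adjusted p = 0.845). Across the 12 group means, as a description, r with Arntl was 0.92 for Nckap5, 0.92 for Asap2 and 0.79 for Atp2b2, and between -0.44 and 0.15 for the other 5 genes.

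Among the 28 pairs of the 8 genes, only Nckap5 and Asap2 varied together past the threshold across vehicle livers (r = 0.77, permutation adjusted p = 0.0341; rho = 0.80, adjusted p = 0.052). The 3 genes most like each member by r over the same 30 livers were read from genes above the 40th percentile of mean liver intensity. For Nckap5 they were Mical2 (0.81), Arntl (0.81) and Ypel2 (0.80), and for Asap2 they were Tab2 (0.81), Nckap5 (0.77) and Elovl3 (0.77), all past the threshold by r. Moxd1, whose relation to Arntl did not pass, was most like Ahcyl2 (0.78), Cd81 (0.76) and Abcg2 (0.74), also past the threshold by r (permutation adjusted p of 0.026 to 0.0321). By rho, of these 9 pairs only Mical2 with Nckap5 and Cd81 with Moxd1 passed (permutation adjusted p = 0.0455 for both), and the rest had 0.0546 to 0.117. Adgrv1 was most like Aox3 (0.77), Hsd3b5 (0.77) and Kcnj4 (0.76), and Atp2b2 most like St6galnac4 (0.77), Rbl1 (0.74) and Adcy7 (0.74), none of which passed. The closest genes to Ptgds (Slc51b, 0.65), Serpina12 (Rarres1, 0.61) and Obp2a (Slc35e3, 0.70) did not pass either.

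Each liver's Arntl level was entered as a covariate, again as a description, with 1 slope per gene over all 75 livers. The percentages below are what was left at that slope, and do not measure the part shared with Arntl. For Nckap5, r with Arntl was 0.81 in the 30 vehicle livers and 0.13 in the 45 treated ones. A slope from the vehicle livers alone was not used. Under GW501516 the Ptgds difference was -2.16 ± 0.42 with the covariate, or 100% of its plain value, and that of Serpina12 was -1.57 ± 0.27, or 122%. The Nckap5 difference was -1.29 ± 0.18 (70.7% of the plain value), that of Atp2b2 -1.49 ± 0.31 (79.5%) and that of Asap2 -0.38 ± 0.15 (36.8%). Under rosiglitazone Nckap5 kept 73.8%, Atp2b2 75% and Asap2 58.9%. Under WY14643 all 8 genes kept 83.1% to 102%, but its mean Arntl difference was small (-0.12 ± 0.23) and left the covariate little to move. That mean joined opposite days. Arntl averaged 7.71 against 5.67 in vehicle livers on day 4, and 6.06 against 8.13 on day 8. The WY14643 percentages therefore do not tell whether the Nckap5 and Asap2 differences on single days went with Arntl. GW501516 and rosiglitazone livers barely overlapped vehicle in Arntl on days 8 and 15, so the covariate rests on an extrapolation and widened the GW501516 errors by 1.06 to 1.35 times.

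**Figure D4:**
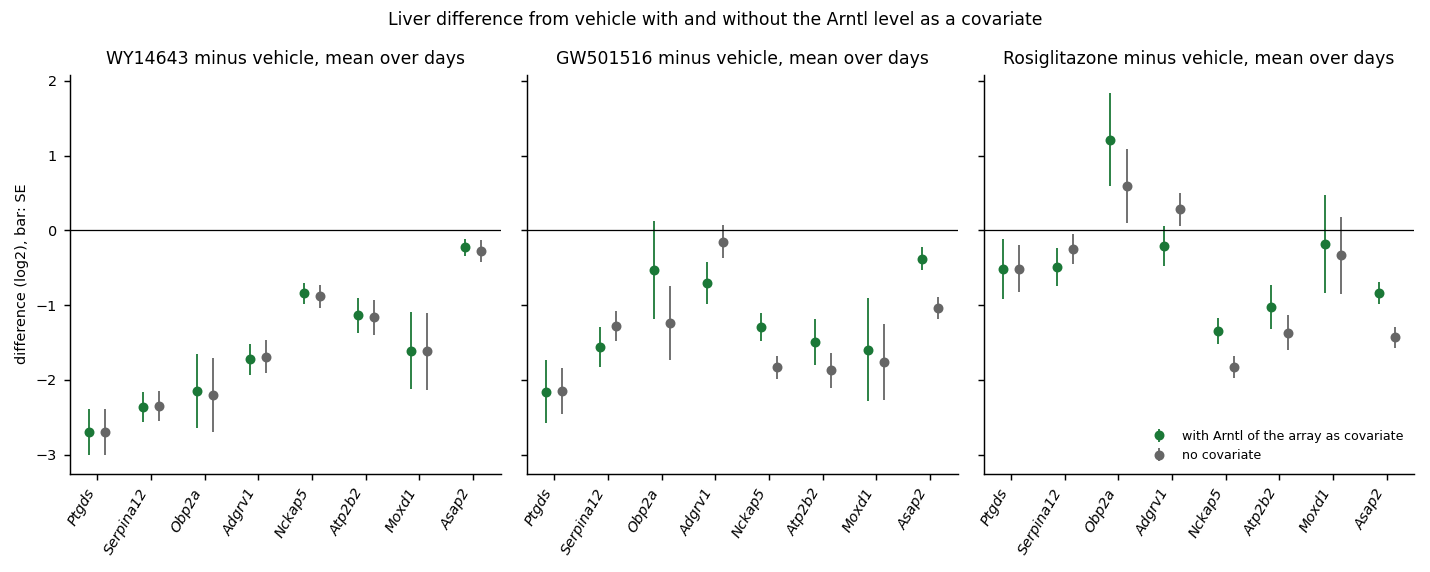
Mean difference from vehicle over days in liver (log2, bars are SE) for each gene, with the Arntl level of the array as a covariate and without it. Ptgds keeps its place under WY14643 and GW501516, and Asap2 moves most towards 0 under GW501516, to -0.38 with the covariate and -1.04 without it.

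Values outside liver were not used in choosing the 8 genes. Over heart, kidney and muscle 72 tests were made and limma called 1. Nckap5 in heart fell by 0.28 on the log2 scale under WY14643 (-0.28 ± 0.08, limma adjusted p = 0.0363, 11 of 15 hearts below the vehicle mean), against 1.44% of all genes, and the call was lost in 8 of 45 fits without 1 array, with array weights (adjusted p = 0.0531) and with the replicate block (adjusted p = 0.164). No member passed in heart under GW501516 (4.17% of all genes) or rosiglitazone (7.51%), in kidney under WY14643 (1.74%), GW501516 (6.79%) or rosiglitazone (1.52%), or in muscle under WY14643 (0.104%), GW501516 (0.857%) or rosiglitazone (1.65%). Ptgds was bright in vehicle heart, at 14.60 ± 0.10 (SD, n = 30), and its heart difference was 0.01 ± 0.03 under WY14643 and 0.03 ± 0.03 under GW501516. Its heart level lay above 99.9% of genes and close to the highest value in the data (15.03), and whether the probe set could still register a change there was not tested. In kidney Ptgds differed by -0.49 ± 0.22 under GW501516 (10 of 15 lower, limma adjusted p = 0.172, 95% interval -0.93 to -0.05) and by -0.20 ± 0.22 under WY14643 (6 of 15 lower, limma adjusted p = 0.912). The median difference of the 8 genes in these tissues lay between -0.05 and 0.06, beside medians over all genes of -0.02 to 0.01.

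How far the genes could be read outside liver differed. Serpina12, Obp2a, Adgrv1 and Moxd1 were below the 40th percentile of mean intensity in heart, kidney and muscle, and Ptgds, Nckap5 and Atp2b2 were so in muscle. That left 4 of the 8 genes above it in heart, 4 in kidney and 1 (Asap2) in muscle. Asap2 averaged 9.19 ± 0.26 in vehicle heart, 6.19 ± 0.32 in vehicle kidney and 6.31 ± 0.36 in vehicle muscle, each on that tissue's own scale. In heart Serpina12 differed by -0.55 ± 0.21 under GW501516 (15 of 15 lower, limma adjusted p = 0.137) and by 0.59 ± 0.21 under rosiglitazone (limma adjusted p = 0.0661), and Adgrv1 by 0.35 ± 0.12 under rosiglitazone (limma adjusted p = 0.0605). Hepatocyte markers, which should be near the floor in heart, averaged 5.69 to 10.25 on WY14643 hearts, 5.34 to 10.47 on GW501516 hearts, 6.22 to 10.75 on rosiglitazone hearts and 5.61 to 10.75 on vehicle hearts. Within groups that level correlated with heart Serpina12 (r = 0.60) and Adgrv1 (r = 0.62) over 75 hearts, and its part in their heart values was not tested. Arntl in heart fell under GW501516 (-1.33 ± 0.16, limma adjusted p = 5.13e-09) and rosiglitazone (-1.71 ± 0.16).

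**Figure D5:**
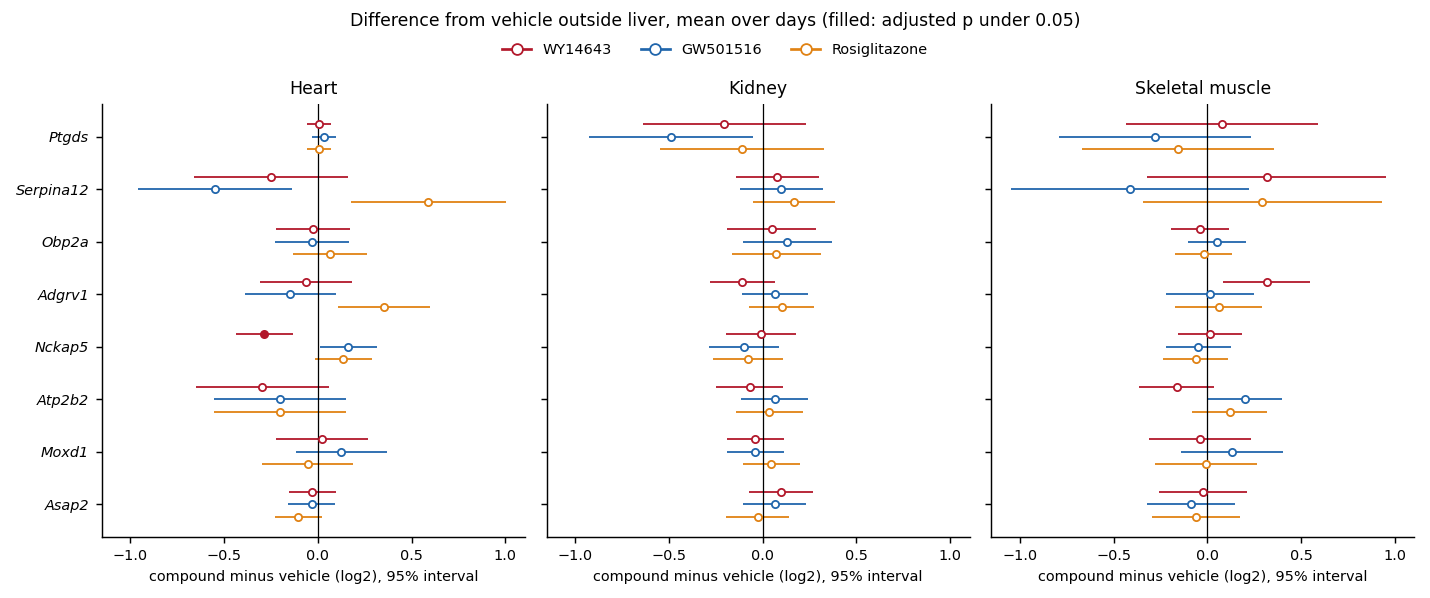
Mean difference from vehicle over days (log2, bars are 95% intervals) of the 8 genes in heart, kidney and muscle under each compound. Filled points passed limma at an adjusted p under 0.05, which only Nckap5 in WY14643 heart did.

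Relatives of the 8 genes were tested in liver, leaving the 8 out. Among lipocalins, the family of Ptgds and Obp2a, 6 of 12 fell and 1 rose under WY14643, where 5.72% of all genes fell and 5.51% rose. The falls were small, the largest being -0.29 ± 0.09 for Lcn12 (limma adjusted p = 0.0265) and -0.14 ± 0.03 for C8g, the lipocalin chain of complement C8 (limma adjusted p = 7.46e-05). Lcn2, an acute-phase lipocalin, rose by 1.45 ± 0.44 (limma adjusted p = 0.0213) in the same livers in which neutrophil markers rose. The lipocalin median was -0.05 under WY14643, beside -0.01 over all genes. Under GW501516 3 of 12 fell and 0 rose (7.06% and 6.86% of all genes), and under rosiglitazone 2 fell and 0 rose (8.71% and 7.48%).

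Among the other serpins of clade A, the family of Serpina12, 5 of 9 fell and 1 rose under WY14643. Serpina9 fell by 1.23 (-1.23 ± 0.20, limma adjusted p = 4.11e-06) and Serpina5, the protein C inhibitor, by 1.06 (-1.06 ± 0.13, limma adjusted p = 2.07e-09). Serpina7, thyroxine-binding globulin, rose by 0.61 ± 0.18 (limma adjusted p = 0.0128). Under GW501516 4 fell, Serpina9 by 0.66 and Serpina5 by 0.41 among them, and 2 rose, Serpina7 by 0.89 and Serpina6, which encodes corticosteroid-binding globulin, by 0.41. Under rosiglitazone 0 of 9 passed. The list median was -0.12 under WY14643, -0.07 under GW501516 and -0.01 under rosiglitazone.

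Of 12 other genes of prostaglandin synthesis and breakdown, none fell with Ptgds under WY14643 and 3 rose, namely Akr1c18 by 0.83 ± 0.19 (limma adjusted p = 0.00114), Hpgd, which inactivates prostaglandins, by 0.19 ± 0.06, and Ptgr2 by 0.12 ± 0.03. Under GW501516 the same 3 genes rose and Tbxas1, thromboxane synthase, fell by 0.26. Of 10 prostaglandin receptors and transporters, 3 fell under WY14643, Tbxa2r (-0.32) and Slco2a1 (-0.31) among them, and 1 rose, Ptger3 by 0.67. Slco2a1, a prostaglandin transporter, fell too under GW501516 (-0.45) and rosiglitazone (-0.29). Of 20 other adhesion receptors, Adgrg2 rose under WY14643 (0.68), GW501516 (1.09) and rosiglitazone (1.62), and Adgrf1 fell under WY14643 (-0.84) and rosiglitazone (-0.55). Among 3 other Usher complex genes, 2 copper monooxygenases and 3 NCKAP genes, 1 passed, Myo7a under rosiglitazone (-0.15). Of 13 other calcium transport genes only Atp2a2 under GW501516 passed (-0.13), and of 20 ARF GTPase-activating and ARF genes 2, 4 and 5 passed under WY14643, GW501516 and rosiglitazone, in both directions and by at most 0.28.

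Hsd3b5 and Elovl3, named above, are known to differ between male and female mouse liver, and 23 genes of that kind were measured. Under WY14643 10 fell and 3 rose, with Hsd3b5 at -1.12 ± 0.27, Ugt2b38 at -1.14 ± 0.28 and Elovl3 at -0.63 ± 0.17, against Cyp2b9 at 2.16 ± 0.55, Cyp17a1 at 1.24 ± 0.24 and Acot3, a PPAR alpha target, at 3.16 ± 0.37 (limma adjusted p of 0.00525 or lower for each). Under GW501516 5 fell and 3 rose, and under rosiglitazone 2 fell and 2 rose. As a check on dosing, 20 of 28 PPAR target genes rose under WY14643, 19 under GW501516 and 17 under rosiglitazone, and 0 fell under any. The core clock list, which holds Arntl, had 1 gene up and 1 down of 21 under WY14643, 9 up and 4 down under GW501516 and 10 up and 4 down under rosiglitazone, with Npas2 at -0.79, -1.63 and -1.55 in that order of compounds.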

How the data were processed

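RNA of 75 mice and 4 tissues was measured on 300 Affymetrix mouse arrays, after column extraction with DNase and amplified biotin labelling, per the labels' protocols. The deposited values are log2 intensities for 45101 probe sets, made by the authors with RMA in Partek, per the submitters' processing notes; tool versions are not given in the sources used here, and no scanner files were used here. No further normalization or filter on dim probe sets was applied; an array gives no read depth, so precision rests on the number of arrays. Probe sets with 1 annotated gene were kept, 1 per gene by highest mean over all arrays, and named through the RefSeq table of GRCm38.p6, by gene ID for 34741 probe sets and by the annotated symbol for 204, giving 18193 genes. No columns were left unused.

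Each tissue was fitted with limma 3.58.1 (R 4.3.3, lmFit, eBayes with trend) as 12 group means with 63 residual degrees of freedom, and p-values were Benjamini-Hochberg adjusted over all genes, with a threshold of 0.05. The mean over days weights the 3 days equally. Relations to Arntl used deviations from day means and 100000 two-sided permutations of mice within days. Fits were tested on simulated data. The members and gene lists were chosen with earlier results of these data known. Genes named were the 8 members, Arntl, the 3 genes most like each member among those above the 40th percentile of mean liver intensity, and, per list, up to 3 called genes with the largest change and called genes of the opposite sign; 3 genes ranked next to the members were added after their values were seen. Same-numbered mice did not vary together (15 sets, 0 with every pair correlation over 0.1), so replicate numbers were not used as pairs. Alternatives included other scalings, array weights, dim genes left out, day 8 left out, clock covariates and each array left out.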

Additional observations from a re-analysis of the deposited data

Results flagged for a closer look

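In 96 groups of liver arrays (8 genes, 12 groups) the most extreme array was compared with the rest of its group, and 7 stood apart by Dixon's test, where chance alone gives about 1 in 20 (4.8 here). Adgrv1 was low in vehicle day 4 replicate 4, at 10.7 against 11.78 to 12.33 in the rest, and in vehicle day 8 replicate 4, at 10.74 against 11.93 to 12.48. Moxd1 was high in GW501516 day 15 replicate 1, at 6.48 against 2.62 to 3.13, and in WY14643 day 8 replicate 5, at 5.47 against 2.78 to 3.50. Ptgds was high in the same GW501516 day 15 replicate 1, at 11.89 against 9.35 to 9.94. Nckap5 was low in GW501516 day 8 replicate 5, at 5.64 against 6.16 to 6.24, and Serpina12 was low in rosiglitazone day 8 replicate 2, at 11.99 against 12.99 to 13.16.

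The difference from vehicle changed between day 15 and day 4 by an interaction test in limma for Nckap5 (-2.85) and Asap2 (-1.86) under WY14643. The vehicle livers were shared with the choice of genes, so these tests are not independent of it. The change in Nckap5 under rosiglitazone (-1.61) was flagged as well. Rosiglitazone livers had chosen Nckap5, so that value is a description with no test.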

How the results depend on the processing

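Of 1130 values of single genes under alternatives other than leaving out 1 array, 1100 were counted as unchanged. A tested value was so counted if it stayed on its side of the threshold, and a called one also had to keep its direction. Uncalled values could change sign, as r with Arntl did for Serpina12 (0.10 in vehicle livers, -0.28 in treated ones). A value given without a test was counted as unchanged if it moved by no more than the spread between replicates. Without day 8 the mean liver difference of Nckap5 under WY14643 was 0.037, against -0.88 over all 3 days, that of Asap2 under WY14643 was 0.38, and that of Nckap5 under rosiglitazone was -1.30. Gene counts in liver moved from 2532 for GW501516 to 1344 without day 8, 945 with Arntl as a covariate and 579 with 2 clock components. For rosiglitazone they moved from 2946 to 1823, 1263 and 39 in the same settings. Between day 15 and day 4, 137 genes were called under WY14643, 80 without its day 4 replicates 2 and 5 (chosen after the data were seen), and 61 to 194 when 1 array was left out (75 without day 15 replicate 2, 61 without replicate 3). Under GW501516 0 were called, 2 with dim genes left out, 35 with array weights, 25 with the replicate block, and 0 to 4 with 1 array left out (4 without vehicle day 15 replicate 1). Under rosiglitazone 24 were called, 13 with arrays centred on their medians, 51 with array weights, 39 with the replicate block, and 2 to 50 with 1 array left out (2 without its day 15 replicate 2, 50 without replicate 1).

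The calls of Nckap5 and Asap2 between day 15 and day 4 under WY14643 held in 30 of 30 fits without 1 array, with limma adjusted p of 7.53e-08 to 3.22e-05 and 0.0009 to 0.00911. The vehicle livers were shared with the choice of genes, so these p-values are not independent of it. The same change in Nckap5 under rosiglitazone and GW501516 is given without a test, because those livers chose it. Under rosiglitazone it was -1.58 with arrays quantile normalized and -1.60 with arrays centred on their medians. Under GW501516 it was -1.87 with array weights and -2.70 with the replicate block. The replicate block raised the members past the threshold over the 3 compounds from 3 to 5. Both counts hold Nckap5 under rosiglitazone, and the block added Nckap5 under GW501516 and Asap2 under rosiglitazone. Those livers chose these genes, so the counts are a description and carry no test. The block is no pairing of animals, since same-numbered mice did not vary together (pair correlations of -0.21 to 0.45, median -0.01). Treated groups hold 5 mice and vehicle groups 10, so vehicle mice numbered above 5 had no same-numbered treated mouse. Those vehicle mice drop out of the block's comparison, and its values, -2.70 among them, rest on the remaining vehicle mice. The block could not be fitted for the vehicle day differences. Between vehicle days 15 and 4, 739 genes were called and 400 to 856 without 1 array (400 without day 15 replicate 7). The vehicle calls of Nckap5 and Asap2 held in 20 of 20 such fits, but those livers were the baseline of the choice, so the calls are not independent of it.

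The relation to Arntl was called for 82 genes and 2 members by r. By rho it was called for 34 genes and 1 member, without the 2 farthest livers for 30 and 0, and with clock component 1 for 27 and 0 (r of 0.76 for Nckap5 and 0.66 for Asap2). It was called for 0 genes and 0 members in the 45 treated livers, where 2318 genes had an unadjusted permutation p under 0.05, and with heart Arntl, where 1039 had. With limma in place of the permutations Nckap5 (adjusted p = 6.59e-05) and Asap2 (0.00475) kept their calls.

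In the other tissues array weights gave 680, 1267 and 2070 genes for hearts under WY14643, GW501516 and rosiglitazone (262, 759 and 1367 without weights). Kidneys gave 634 under WY14643 and 737 under rosiglitazone (316 and 276 without), and muscles 34, 458 and 643 (19, 156 and 301 without). The replicate block gave 161, 448 and 892 for hearts, 300 (GW501516, 1236 without it) and 168 (rosiglitazone) for kidneys, and 52 (WY14643) and 541 (rosiglitazone) for muscles. Without day 8 hearts gave 202 (GW501516) and 399 (rosiglitazone), kidneys gave 175, 321 and 29, and muscles gave 32, 26 and 16. Leaving out 1 array gave 113 to 455 genes for WY14643 heart (113 without day 4 replicate 2, 455 without replicate 3 or vehicle day 15 replicate 8) and 10 to 81 for WY14643 muscle (10 without day 15 replicate 2, 81 without day 4 replicate 1). Of the 72 member tests 2 were called with array weights, Adgrv1 and Nckap5 in rosiglitazone heart (adjusted p = 0.0139 and 0.0392), and 0 with the replicate block, where Nckap5 in WY14643 heart had an adjusted p of 0.164 (0.0531 with array weights). The replicate block left out vehicle mice numbered above 5 in these tissues too. Beyond that, the cause of these shifts was not tested. Signal over background limits the values of Moxd1 in liver and of the dim genes outside it.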
